A study of Homo sapiens with 18 samples.

Results

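The genes described here are the human histone genes: the replication-dependent families of linker histone H1 and core histones H2A, H2B, H3 and H4, and 6 variant genes, H2AZ1, H2AZ2, H2AX, H2AJ, H3-3A and H3-3B. They were taken by name, as the protein-coding rows with an H1, H2AC, H2BC, H3C or H4C family symbol together with the 6 variants, and not by their response. The rule found 77 of the 60656 gene rows: 10 for H1, 15 for H2A, 18 for H2B, 13 for H3, 15 for H4 and 6 for the variants. A further 2 symbols that fit the rule, H2AC18 and H2AC19, had no row and were not analysed here. Polyadenylated RNA was read at its 3′ ends in CAMA-1 and ZR-75-1, which are established lines of oestrogen receptor-positive breast cancer, each used here as the unedited parental line (labelled wild type). Each line was given abemaciclib at 500 nM, palbociclib at 500 nM or an equal volume of the solvent DMSO for 5 days, and each of the 6 groups had 3 libraries, which the study describes as independent biological replicates. Both drugs inhibit the kinases CDK4 and CDK6, which release cells from the retinoblastoma protein into S phase. Each line stands for 1 tumour-derived culture, and the DMSO libraries of a line serve both of its drug comparisons.

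Replication-dependent histone genes are transcribed mainly in S phase, when new chromatin is packaged, under the coactivator NPAT. Their transcripts end just past a conserved stem-loop, bound by SLBP, in place of a poly(A) tail, and a library primed on poly(A) therefore sees only those histone transcripts that carry a tail. Variant histones such as H2A.Z and H3.3 are made outside S phase too, from polyadenylated transcripts. The deposited reads can report the tailed transcripts of these genes and not the bulk of replication-dependent histone mRNA.

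The stem-loop was searched for as a 16-base pattern in the 200 bases after the stop codon on GRCh38 with the GENCODE 44 annotation. It was held by 65 of the 77 histone genes, against 69 of 20046 protein-coding genes in all (0.344%). Of these 65, 17 had an annotated transcript that ran more than 50 bases past the stem-loop and 48 ended at the stem-loop only. The other 12 had no match to the pattern in the window, and they included all variants but H2AX. A stem-loop that departs from the pattern would be missed. Of the 12, the replication-dependent genes H3C6, H2BC10 and H4C13 had annotated ends 51, 56 and 51 bases after the stop codon. This grouping by 3′ end was made with the values known and is a description. The study counted reads on an earlier GENCODE release, so that an end found only in GENCODE 44 may not have collected reads. The windows printed here are shown because they belong to genes that fell (H4C3, H2AC14, H1-4, H1-2, H2AX) and genes that rose in at least 1 line (H2AC6, H2BC5, H4C8). They lie at chr6:26104310-26104339 (plus strand), chr6:27814301-27814330 (minus), chr6:26157088-26157117 (plus), chr6:26055737-26055766 (minus), chr11:119094891-119094920 (minus), chr6:26124662-26124691 (plus), chr6:26158580-26158609 (plus) and chr6:26285124-26285153 (minus), all after the stop codon. Each reads 5′ to 3′ in the sense of the gene, with the 16 bases of the stem-loop in capitals.
H4C3: acccaaaGGCCCTTTTCAGGGCCgctcaca
H2AC14: aaacaaaGGCTCTTTTCAGAGCCacttcaa
H1-4: acccaaaGGCTCTTTTCAGAGCCacccacc
H1-2: cccaaaaGGCTCTTTTCAGAGCCaccactg
H2AX: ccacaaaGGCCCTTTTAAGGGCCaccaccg
H2AC6: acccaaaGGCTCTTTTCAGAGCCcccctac
H2BC5: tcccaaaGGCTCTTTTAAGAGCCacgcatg
H4C8: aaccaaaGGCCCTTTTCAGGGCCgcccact
The 16 bases were identical in H4C3, which fell, and H4C8, which rose, and they were also identical in H2AC14, H1-4 and H1-2, which fell, and H2AC6, which rose. A poly(A) signal (AATAAA or ATTAAA, sense strand) began within 200 bases of the stop codon in 9 of the 77 genes, against 26.5% of protein-coding genes, and only 3 of those 9 were among the histone genes with enough counts to test.

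Promoter windows from RefSeq (GRCh38.p14, 250 bases before to 50 after the gene start) matched 71 of the 77 genes. H4C3 had no entry. The motifs were CCAAT (the box bound by NF-Y), TATAAA (the TATA box), ATTTGCAT (the octamer bound by POU2F1) and TTTNNCGC (an E2F-like site), all searched for on both strands. CCAAT stood in all 14 H2A, 18 H2B, 11 H3 and 6 variant promoters, in 8 of 9 for H1 and in 3 of 13 for H4, against 34.6% of 35116 promoters. ATTTGCAT stood in 11 of 14 H2A and 14 of 18 H2B promoters and in none for H1 and H4, against 1.77% of promoters. TATAAA was in 11.5% of all promoters and in 4 of 9 for H1, 10 of 14 for H2A, 12 of 18 for H2B, 8 of 11 for H3, 7 of 13 for H4 and 3 of 6 variants. TTTNNCGC was in 6.89% of all promoters and in 1 of 9, 5 of 14, 6 of 18, 2 of 11, 4 of 13 and 1 of 6 of the same sets. The promoters printed here belong to a gene with one of the largest falls (H2AC14, chr6:27814728-27815027, minus strand), to 2 that rose in CAMA-1 (H3C6, chr6:26223928-26224227, plus strand, and H4C8, chr6:26285485-26285784, minus strand) and to a variant that fell (H2AZ1, chr4:99950226-99950525, minus strand), with matches of the motifs on either strand in capitals.
H2AC14: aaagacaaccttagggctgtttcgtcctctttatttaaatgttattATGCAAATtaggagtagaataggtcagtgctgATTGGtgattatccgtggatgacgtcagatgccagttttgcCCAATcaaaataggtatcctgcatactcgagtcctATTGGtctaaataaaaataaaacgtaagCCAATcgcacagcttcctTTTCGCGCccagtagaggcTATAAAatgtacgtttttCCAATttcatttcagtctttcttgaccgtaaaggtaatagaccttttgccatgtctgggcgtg
H3C6: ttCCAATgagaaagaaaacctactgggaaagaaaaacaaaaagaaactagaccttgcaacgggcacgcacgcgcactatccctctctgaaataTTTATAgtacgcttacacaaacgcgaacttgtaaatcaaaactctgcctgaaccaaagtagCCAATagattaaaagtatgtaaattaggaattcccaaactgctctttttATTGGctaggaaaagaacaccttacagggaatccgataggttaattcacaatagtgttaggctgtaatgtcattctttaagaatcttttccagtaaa
H4C8: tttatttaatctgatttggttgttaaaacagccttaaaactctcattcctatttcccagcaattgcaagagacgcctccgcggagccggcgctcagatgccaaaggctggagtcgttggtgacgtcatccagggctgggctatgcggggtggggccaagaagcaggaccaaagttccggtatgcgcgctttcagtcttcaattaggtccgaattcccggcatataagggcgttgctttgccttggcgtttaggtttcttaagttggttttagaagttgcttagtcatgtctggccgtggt
H2AZ1: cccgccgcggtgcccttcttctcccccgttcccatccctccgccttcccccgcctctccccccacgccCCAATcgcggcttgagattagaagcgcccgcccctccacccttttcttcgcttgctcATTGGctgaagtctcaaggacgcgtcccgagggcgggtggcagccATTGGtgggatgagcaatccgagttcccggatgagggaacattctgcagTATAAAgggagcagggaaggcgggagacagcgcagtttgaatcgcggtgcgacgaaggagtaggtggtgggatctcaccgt
H2AC14 held a match of each of the 4 motifs, H3C6 and H2AZ1 held the CCAAT and TATA boxes, and the H4C8 window held none of them. A match is a match of letters, and binding was not measured here.

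Library totals ran from 2308442 to 4146549 counts, so that 3 counts stood for 0.723 to 1.30 CPM (counts per 1000000 of the library). The luminal markers ESR1, GATA3, FOXA1, SPDEF, XBP1, KRT8, KRT18 and KRT19 were detected in every library, and the summed basal, immune and endothelial markers stayed at or under 3.49 CPM. The 4 fibroblast markers summed to 15.0 to 33.2 CPM, with 2 or 3 of them at 0. Mitochondrial genes took 14.8% to 16.6% of counts in CAMA-1 with DMSO and 22.9% to 26.1% with either drug, and 17.3% to 22.6% in ZR-75-1 over all treatments. No called histone direction turned when those genes were left out.

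Histone RNA was detected in part. A count was seen in at least 1 library for 59 of the 77 rows, 40 rows had 10 or more counts over the 18 libraries, and 18 had none. All 6 variants had counts, as did 6 of 10 H1, 12 of 15 H2A, 15 of 18 H2B, 7 of 13 H3 and 13 of 15 H4 rows. After the filter on low counts 28 genes were tested in at least 1 line, 24 of them in CAMA-1, 27 in ZR-75-1 and 23 in both. The 49 genes tested in neither line held 427 of the 138935 histone counts, and the highest of their totals was 66 (H4C11). Counts near this level cannot show a moderate difference. H2BC7, a replication-dependent H2B gene under the filter, had 10, 4 and 5 counts in the CAMA-1 DMSO libraries and 0 in each abemaciclib library, and 11, 6 and 8 against 0, 2 and 1 in ZR-75-1. It is 1 example of the 49, was not tested, and does not stand for the others.

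With either inhibitor 12 to 14 of the 24 or 27 tested histone transcripts fell, among them H4C3, H2AC14, H2AC20, H1-4, H1-10 and the H2A.Z genes in all 4 comparisons with DMSO, while 2 to 9 rose, among them H2AC6 in all 4. A gene is called here at an adjusted p under 0.05 in edgeR's quasi-likelihood test with Benjamini-Hochberg adjustment over all genes tested, and each log2 fold change is followed by its standard error. In CAMA-1 with abemaciclib, 12 of 24 histone genes were lower and 9 higher, where 20.1% of all tested genes were called lower and 20.3% higher. Palbociclib in that line gave 12 lower and 7 higher, beside 18.7% and 18.4% of all genes. In ZR-75-1 with abemaciclib, 14 of 27 were lower and 4 higher, beside 18.3% and 17.9%. Palbociclib in that line gave 12 lower and 2 higher, beside 13.4% and 14.5%. The share of histone genes that were lower was thus above the background in each comparison, whereas the share that were higher was above it only in CAMA-1. The median log2 fold change of the tested histone genes was -0.14, -0.25, -0.95 and -0.38 in these 4 comparisons, beside 0.01, 0.00107, -0.00373 and -0.00804 over all genes. In these bulk libraries, fewer cells in S phase and less histone RNA per cell cannot be told apart.

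Over the 4 comparisons with DMSO, 11 of the 23 histone genes tested in both lines were lower in each. Among them were H4C3, H1-2, H1-4, H1-10, H2AC14, H2AC20, H2AX, H2AZ1, H2AZ2 and H3-3B. H2AC6 alone was higher in all 4. In single comparisons 13.4% to 20.1% of all genes were lower and 14.5% to 20.3% higher. The share of all genes called the same way in all 4 was not counted. H2AJ was called in both directions, and 5 genes were called in none of the comparisons in which they were tested (H2AC8, H2AC11, H2BC11, H2BC15 and H3-3A). Apart from H3-3A, their log2 fold changes against DMSO lay between -1.04 and 0.65, with 35 or fewer counts in every library. The comparisons of a line share their DMSO libraries, so that agreement between the drugs is not independent.

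**Figure D1:**
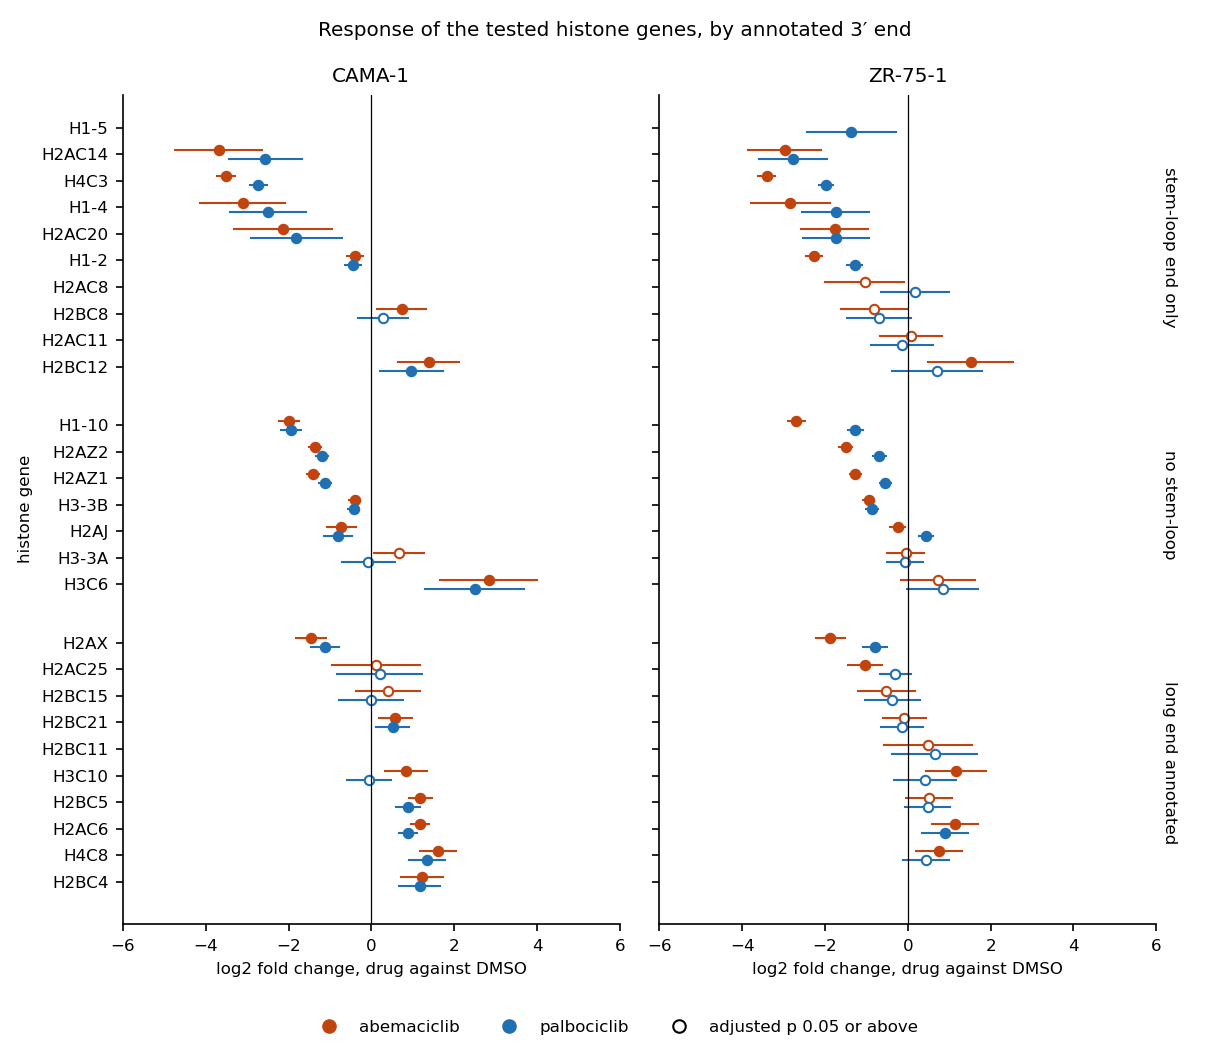
Log2 fold change (x axis, with approximate 95% intervals) of tested histone genes (y axis, grouped by annotated 3′ end) for abemaciclib (orange) and palbociclib (blue) against DMSO in CAMA-1 (left) and ZR-75-1 (right), 3 libraries a group, with filled points for an adjusted p under 0.05. H4C3 sits at -3.52 to -1.97 and H2AC6 at 0.88 to 1.18 in all 4 comparisons. H1-5 with abemaciclib in ZR-75-1 is left out because all 3 of its libraries were at 0.

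H4C3 is one of many gene copies for the core histone H4, and of the replication-dependent genes it had the most counts with DMSO. In CAMA-1 its normalised counts were 741, 844 and 599.8 CPM with DMSO, 64.1, 70.1 and 56.8 under abemaciclib and 91.6, 125 and 114 under palbociclib. All drug libraries lay far below all DMSO libraries, and the abemaciclib libraries lay below the palbociclib ones. The log2 fold change was -3.52 ± 0.11 (adjusted p of 1.06e-27) with abemaciclib and -2.73 ± 0.10 (adjusted p of 5.74e-25) with palbociclib. In ZR-75-1 the values were 1067, 844 and 1167 with DMSO, 95.1, 105 and 87.5 under abemaciclib and 309.8, 245 and 226 under palbociclib. The 3 groups again did not overlap, in the same order. Its fold changes there were -3.41 ± 0.10 (adjusted p of 8.63e-35) and -1.97 ± 0.09 (adjusted p of 8.12e-26). H4C3 supplied 97.8% to 99.0% of the counts of all H4 genes with DMSO and 18.7% to 27.0% of all histone counts. With abemaciclib it made up 67.4% to 69.7% of H4 counts and 3.72% to 4.52% of histone counts in CAMA-1, and 81.9% to 88.1% and 5.87% to 7.30% in ZR-75-1. It lies at chr6:26103933-26104337 on the plus strand, within the annotated span of H2BC4 on the other strand, and whether the counting used strand was not stated.

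H4C8, another H4 gene, moved the other way. It had 6.31, 8.40 and 10.2 CPM in CAMA-1 with DMSO, 28.6, 26.0 and 23.2 under abemaciclib and 22.2, 19.1 and 23.2 under palbociclib. Every drug library of the line was above every DMSO library, with log2 fold changes of 1.61 ± 0.22 (adjusted p of 5.29e-08) and 1.34 ± 0.22 (adjusted p of 2.93e-06). Its ZR-75-1 libraries had 7.38, 8.13 and 9.82 with DMSO, 13.3, 12.9 and 17.0 under abemaciclib and 7.13, 12.6 and 14.7 under palbociclib. There the abemaciclib libraries alone stood clear of DMSO, at 0.76 ± 0.28 (adjusted p of 0.0267), and that call was lost without DMSO replicate 1 or 2 or abemaciclib replicate 3 and in DESeq2 (adjusted p up to 0.121). The palbociclib value was 0.44 ± 0.28 (adjusted p of 0.265). An unnamed transcript overlaps its exons on the opposite strand. No other H4 gene passed the filter on low counts.

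Among H2A genes, which encode the core histone H2A, H2AC14 and H2AC20 fell and H2AC6 rose. H2AC14 had 7.31, 10.9 and 12.8 CPM in CAMA-1 with DMSO, 0.267, 1.76 and 0.635 under abemaciclib and 1.47, 1.74 and 2.08 under palbociclib. Its ZR-75-1 values were 11.9, 14.1 and 12.9 with DMSO, 2.59, 0.677 and 1.54 under abemaciclib and 2.47, 1.32 and 1.73 under palbociclib. No drug library overlapped the DMSO libraries of its line, although the drug libraries held only 1 to 9 counts each. Its log2 fold changes in CAMA-1 were -3.68 ± 0.52 (adjusted p of 1.52e-07) with abemaciclib, or -4.47 without abemaciclib replicate 2, and -2.56 ± 0.43 (adjusted p of 6.05e-06) with palbociclib. Those in ZR-75-1 were -2.97 ± 0.44 (adjusted p of 1.33e-07) and -2.77 ± 0.41 (adjusted p of 3.4e-07).

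H2AC20 had 22, 19 and 26 counts in CAMA-1 with DMSO, 13, 1 and 0 under abemaciclib and 15, 2 and 3 under palbociclib. Replicate 1 of each drug stood well above the other 2. The log2 fold change was -2.14 ± 0.59 (adjusted p of 0.00288) with abemaciclib, or -4.91 without abemaciclib replicate 1, and -1.81 ± 0.55 (adjusted p of 0.0075) with palbociclib, or -3.02 without palbociclib replicate 1. Both calls were lost in DESeq2, the second also without palbociclib replicate 2 (adjusted p up to 0.195). In ZR-75-1 the counts were 35, 29 and 32 with DMSO, 11, 12 and 3 under abemaciclib and 13, 8 and 10 under palbociclib, with -1.77 ± 0.41 (adjusted p of 0.000377) and -1.74 ± 0.39 (adjusted p of 0.000481), and the drug libraries all lay below DMSO.

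H2AC6 had 47.9, 48.7 and 45.6 CPM in CAMA-1 with DMSO, 98.3, 115 and 109.8 under abemaciclib and 79.7, 84.8 and 97.4 under palbociclib. Its level in ZR-75-1 was lower, at 6.10, 6.62 and 7.79 with DMSO, 19.1, 12.5 and 13.5 under abemaciclib and 13.7, 10.6 and 13.6 under palbociclib. In both lines every drug library was above every DMSO library. H2AC6 changed by 1.18 ± 0.11 (adjusted p of 5.17e-12) and 0.88 ± 0.11 (adjusted p of 1.38e-08) in CAMA-1 against 1.14 ± 0.28 (adjusted p of 0.000687) and 0.89 ± 0.28 (adjusted p of 0.0111) in ZR-75-1, where the palbociclib call was lost without DMSO replicate 1 (adjusted p = 0.0503). A same-strand transcript without a name overlaps its exons. H2AC25 fell in ZR-75-1 with abemaciclib alone, at -1.03 ± 0.20 (adjusted p of 3.26e-05), with 27.9, 23.5 and 27.8 CPM with DMSO and 12.6, 12.5 and 13.5 with the drug. Its palbociclib value was -0.30 ± 0.18 (adjusted p of 0.233).

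H2B genes encode the partner of H2A in the nucleosome. In CAMA-1 5 of 6 tested H2B genes rose with abemaciclib and 4 of 6 with palbociclib, beside 20.3% and 18.4% of all genes. In ZR-75-1 1 of 6 rose with abemaciclib, near the 17.9% of all genes. With palbociclib 0 of the 6 were called in ZR-75-1, where edgeR gave 0 at an unadjusted p under 0.05 and DESeq2 also called 0. Of all genes, 13.4% were lower and 14.5% higher in that comparison. H2BC5 had 32.2, 29.8 and 28.5 CPM in CAMA-1 with DMSO, 62.5, 75.8 and 67.9 under abemaciclib and 60.1, 42.6 and 63.4 under palbociclib. The groups did not overlap with DMSO, and the log2 fold change was 1.18 ± 0.14 (adjusted p of 3.28e-09) and 0.88 ± 0.14 (adjusted p of 2.45e-06). Its ZR-75-1 libraries had 9.31, 10.5 and 6.77 with DMSO, 11.0, 11.5 and 15.8 under abemaciclib and 9.05, 13.2 and 15.3 under palbociclib, where only the palbociclib libraries overlapped DMSO, and the values 0.51 ± 0.28 (adjusted p of 0.157) and 0.48 ± 0.27 (adjusted p of 0.191) were not called. H2BC4 was tested in CAMA-1 only, where it had 6.98, 6.30 and 7.84 CPM with DMSO, 15.8, 19.4 and 15.2 under abemaciclib and 16.1, 13.3 and 18.7 under palbociclib. Its drug libraries stood above DMSO, at 1.22 ± 0.25 (adjusted p of 0.000101) and 1.16 ± 0.25 (adjusted p of 0.000184). Its annotated span of 37610 bases overlaps exons of HFE on the opposite strand.

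H2BC12 had 15, 16 and 6 counts in CAMA-1 with DMSO, 36, 26 and 28 under abemaciclib and 28, 26 and 23 under palbociclib. Its log2 fold changes were 1.38 ± 0.37 (adjusted p of 0.00231) and 0.97 ± 0.38 (adjusted p of 0.0396), the second being 0.48 and not called without DMSO replicate 3, and also lost without any 1 palbociclib library, in DESeq2 and in the fit of all 18 libraries. In ZR-75-1 it had 6, 5 and 8 with DMSO, 19, 18 and 14 under abemaciclib and 3, 17 and 13 under palbociclib, and it was called with abemaciclib, at 1.52 ± 0.51 (adjusted p of 0.0155), a call lost without DMSO replicate 1 or 2 (adjusted p up to 0.0736). The palbociclib value was 0.70 ± 0.54 (adjusted p of 0.371). H2BC21 rose in CAMA-1, at 0.58 ± 0.20 (adjusted p of 0.0193) and 0.52 ± 0.20 (adjusted p of 0.0398), from 15.0, 16.8 and 13.8 CPM with DMSO to 26.2, 16.8 and 23.5 under abemaciclib and 18.8, 21.7 and 24.6 under palbociclib. The abemaciclib and DMSO groups overlapped, and the calls were lost without DMSO replicate 3 or, for abemaciclib, its replicate 1 or 3, and for palbociclib DMSO replicate 1 or its replicate 2 or 3, in DESeq2 or without the low-count filter (adjusted p up to 0.142 for each). H2BC8 was called in CAMA-1 with abemaciclib alone, at 0.73 ± 0.29 (adjusted p of 0.0413), a call lost under 6 of 13 alternatives (adjusted p up to 0.304): without DMSO replicate 2 or 3 or abemaciclib replicate 3, where it was 0.45, in DESeq2, without the low-count filter and with the replicate block.

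H3 genes encode the core histone H3, and few of their transcripts were seen. H3C10 had 6.65, 15.1 and 10.2 CPM in CAMA-1 with DMSO, 18.2, 18.1 and 20.3 under abemaciclib and 12.0, 11.0 and 6.93 under palbociclib. The abemaciclib libraries lay above the DMSO range, and the palbociclib libraries lay within it. The log2 fold change was 0.83 ± 0.25 (adjusted p of 0.00679) with abemaciclib, a call lost without DMSO replicate 1 (adjusted p = 0.0715), and -0.06 ± 0.27 (adjusted p of 0.891) with palbociclib. In ZR-75-1, with 5.46, 3.31 and 4.40 with DMSO, 10.4, 8.12 and 11.2 under abemaciclib and 7.41, 4.30 and 5.78 under palbociclib (CPM), it was 1.17 ± 0.36 (adjusted p of 0.00751) and 0.42 ± 0.37 (adjusted p of 0.44). H3C6 had only 1, 3 and 3 counts in CAMA-1 with DMSO, against 18, 9 and 21 under abemaciclib and 10, 17 and 15 under palbociclib. The ratio of summed counts, scaled for depth, was 7.54 with abemaciclib (95% interval 3.39 to 19.8, counting error only) and 5.80 with palbociclib (2.58 to 15.3), and the adjusted p was 0.000104 and 0.00077. In ZR-75-1 the counts were 10, 10 and 8 with DMSO, 19, 14 and 10 under abemaciclib and 18, 20 and 16 under palbociclib, and neither 0.72 ± 0.45 (adjusted p of 0.213) nor 0.84 ± 0.43 (adjusted p of 0.149) was called.

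Linker histones of the H1 family bind the DNA between nucleosomes, and each tested H1 gene fell in every comparison in which it was tested. Of all genes, 13.4% to 20.1% were lower in these comparisons with DMSO. H1-2 is replication-dependent but was well represented here, with 217, 239.8 and 166 CPM in CAMA-1 with DMSO, 157, 147 and 168 under abemaciclib and 158, 155 and 141 under palbociclib. The abemaciclib range reached into the DMSO range in that line, while the palbociclib libraries stood just below it. Its log2 fold change was -0.39 ± 0.10 (adjusted p of 0.00099) and -0.44 ± 0.09 (adjusted p of 0.000194). H1-2 in ZR-75-1 had 245, 232 and 252 with DMSO, 43.7, 49.1 and 59.4 under abemaciclib and 94.1, 108 and 97.6 under palbociclib. The 3 groups were far apart there, with -2.27 ± 0.10 (adjusted p of 2.13e-26) and -1.28 ± 0.09 (adjusted p of 2.04e-17). H1-4 had 24, 31 and 33 counts in CAMA-1 with DMSO, 1, 3 and 5 under abemaciclib and 7, 5 and 4 under palbociclib. Its ZR-75-1 counts were 29, 27 and 46 with DMSO, 4, 7 and 2 under abemaciclib and 19, 8 and 6 under palbociclib. Its drug libraries all lay below DMSO, at -3.10 ± 0.51 (adjusted p of 2.92e-06) and -2.50 ± 0.46 (adjusted p of 1.97e-05) in CAMA-1 against -2.83 ± 0.48 (adjusted p of 2.61e-06) and -1.75 ± 0.41 (adjusted p of 0.000706) in ZR-75-1.

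H1-10, a linker gene with a polyadenylated transcript, had 154, 115 and 138 CPM in CAMA-1 with DMSO, 36.3, 36.6 and 30.2 under abemaciclib and 38.9, 32.4 and 33.6 under palbociclib. Its ZR-75-1 values were 247, 235 and 229 with DMSO, 34.3, 38.9 and 37.0 under abemaciclib and 109, 82.6 and 102 under palbociclib. It fell in all 4 comparisons without overlap, at -1.98 ± 0.12 (adjusted p of 2.23e-17) and -1.95 ± 0.12 (adjusted p of 2.51e-17) in CAMA-1 against -2.69 ± 0.11 (adjusted p of 1.16e-28) and -1.27 ± 0.09 (adjusted p of 4.59e-17) in ZR-75-1. An antisense gene, H1-10-AS1, overlaps its exons.

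H1-5 was tested in ZR-75-1 only. It had 14, 14 and 13 counts with DMSO, 0 in each abemaciclib library and 6, 3 and 8 with palbociclib. With abemaciclib it was at least 4.17-fold lower, taking 3 counts per library as the floor, and with palbociclib the log2 fold change was -1.37 ± 0.53 (adjusted p of 0.0487), a call that 11 of 13 alternatives lost (adjusted p up to 0.190). In CAMA-1, where it did not pass the filter, it had 18, 5 and 18 counts with DMSO and 0 in each abemaciclib library, at least 3.90-fold lower.

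**Figure D2:**
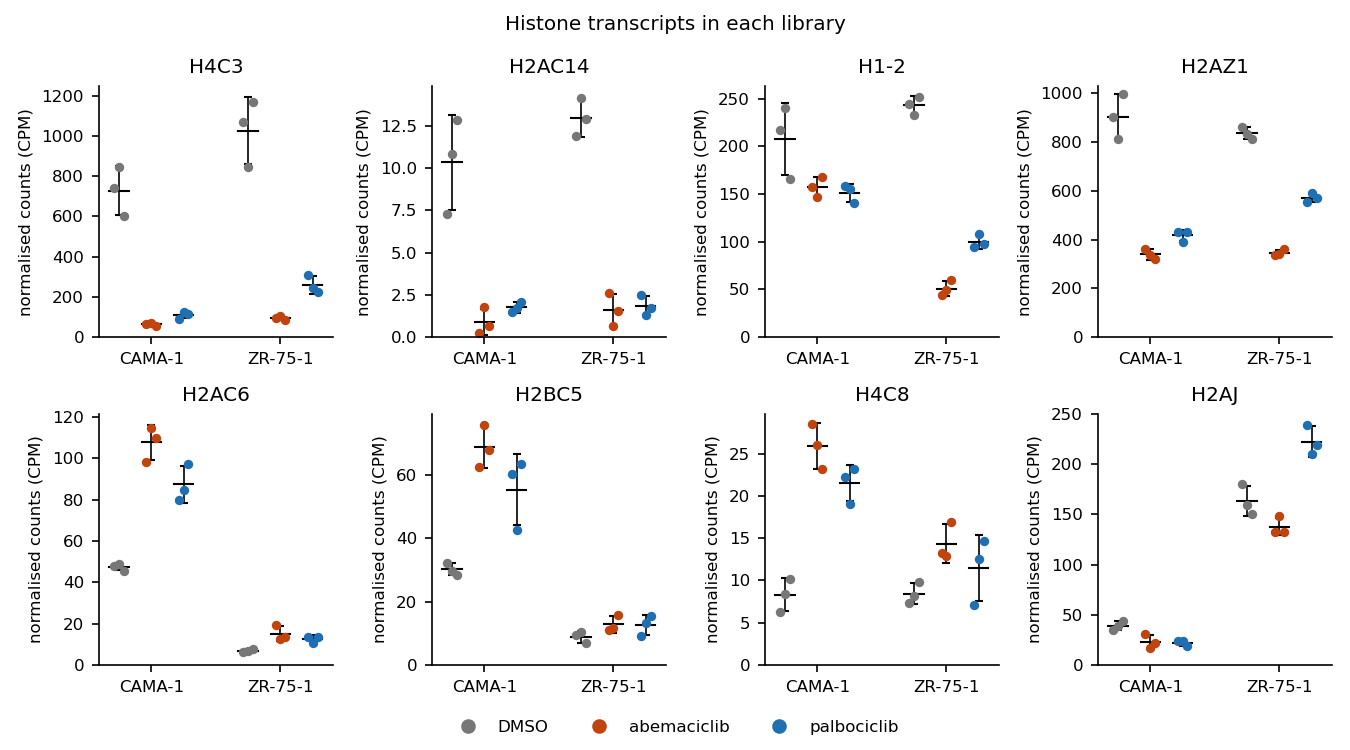
Normalised counts (y axis, CPM, each panel on its own linear scale from 0) of 8 histone genes in every library of CAMA-1 and ZR-75-1, with points for libraries coloured by treatment and black lines for the mean and SD of 3 libraries. H4C3, H2AC14, H1-2 and H2AZ1 are lower and H2AC6 and H4C8 higher with abemaciclib in both lines, and H2AJ with palbociclib is lower in CAMA-1 and higher in ZR-75-1.

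The variant genes held most histone counts, and 5 of the 6 fell with abemaciclib in each line. H2AZ1 and H2AZ2 encode the 2 forms of H2A.Z, which marks promoters and enhancers. H2AZ1 had 905, 815 and 997 CPM in CAMA-1 with DMSO, 363, 337 and 319 under abemaciclib and 431, 392 and 432 under palbociclib. In ZR-75-1 it had 862, 832 and 815 with DMSO, 338, 343 and 360.1 under abemaciclib and 553, 590.4 and 573 under palbociclib. The 3 groups of each line did not overlap, with abemaciclib lowest. The log2 fold change was -1.41 ± 0.07 (adjusted p of 4.27e-20) and -1.12 ± 0.07 (adjusted p of 6.21e-17) in CAMA-1 against -1.27 ± 0.07 (adjusted p of 7.56e-23) and -0.55 ± 0.07 (adjusted p of 1.36e-09) in ZR-75-1. H2AZ2 had 571, 582 and 521 CPM in CAMA-1 with DMSO, 207, 206 and 236 under abemaciclib and 232, 244 and 259 under palbociclib. Its ZR-75-1 values were 374, 394 and 374 with DMSO, 117, 141 and 146 under abemaciclib and 244, 227 and 236 under palbociclib. The drug libraries were all below DMSO, while the drugs overlapped in CAMA-1 alone. The fold changes were -1.37 ± 0.07 (adjusted p of 2.89e-19) and -1.19 ± 0.07 (adjusted p of 1.92e-17) in CAMA-1 against -1.50 ± 0.08 (adjusted p of 8.78e-23) and -0.69 ± 0.08 (adjusted p of 1.09e-10) in ZR-75-1, on the log2 scale.

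H2AX, which is phosphorylated around DNA breaks and whose gene makes both stem-loop and polyadenylated transcripts, had 47.5, 46.6 and 41.3 CPM in CAMA-1 with DMSO, 11.2, 21.2 and 18.1 under abemaciclib and 20.8, 18.5 and 23.2 under palbociclib. H2AX in ZR-75-1 had 55.9, 58.1 and 71.5 with DMSO, 17.2, 13.2 and 20.4 under abemaciclib and 28.0, 34.7 and 44.2 under palbociclib. All drug libraries lay below DMSO. This gave log2 fold changes of -1.46 ± 0.18 (adjusted p of 7.67e-09) and -1.11 ± 0.17 (adjusted p of 7.99e-07) in CAMA-1 against -1.87 ± 0.17 (adjusted p of 1.19e-13) and -0.79 ± 0.15 (adjusted p of 3e-05) in ZR-75-1.

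H3-3A and H3-3B both encode H3.3, the H3 variant placed outside replication, and one of the 2 was called. H3-3B had 453, 444 and 461 CPM in CAMA-1 with DMSO, 347, 353 and 334 under abemaciclib and 333, 343 and 337 under palbociclib, and 893, 855 and 827 with DMSO, 447, 429 and 458 under abemaciclib and 433, 498 and 484 under palbociclib in ZR-75-1. Its replicates lay close together, and its drug libraries were clear of DMSO. It fell, with log2 fold changes of -0.40 ± 0.07 (adjusted p of 3.82e-06) and -0.42 ± 0.07 (adjusted p of 1.08e-06) in CAMA-1 against -0.95 ± 0.07 (adjusted p of 2.28e-17) and -0.86 ± 0.07 (adjusted p of 1.43e-15) in ZR-75-1. H3-3A had 8.31, 6.65 and 5.70 CPM in CAMA-1 with DMSO, 12.3, 11.5 and 8.57 under abemaciclib and 6.35, 5.50 and 7.63 under palbociclib. In ZR-75-1 it had 18.0, 13.8 and 24.7 with DMSO, 19.4, 15.2 and 19.7 under abemaciclib and 14.0, 19.2 and 20.5 under palbociclib. H3-3A was called in none of the 4 comparisons: its log2 fold changes were 0.66 ± 0.30 (adjusted p of 0.0755), -0.08 ± 0.32 (adjusted p of 0.877), -0.05 ± 0.22 (adjusted p of 0.885) and -0.07 ± 0.22 (adjusted p of 0.848), in the order of abemaciclib and palbociclib in CAMA-1 and then in ZR-75-1. The difference in response between the 2 genes was not tested.

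H2AJ, an H2A variant gene with a polyadenylated transcript, was the one histone gene called in both directions. It had 34.9, 38.9 and 43.5 CPM in CAMA-1 with DMSO, 30.7, 17.2 and 21.6 under abemaciclib and 24.2, 24.0 and 18.7 under palbociclib. In ZR-75-1 its level was higher, at 180.4, 159.8 and 150.4 with DMSO, 133, 148 and 133 under abemaciclib and 239, 209.9 and 219 under palbociclib. In ZR-75-1 the palbociclib libraries stood above all DMSO libraries and the abemaciclib libraries below them. H2AJ moved by -0.72 ± 0.17 (adjusted p of 0.000728) and -0.80 ± 0.17 (adjusted p of 0.00019) in CAMA-1, -0.25 ± 0.09 (adjusted p of 0.0231) with abemaciclib in ZR-75-1 and 0.45 ± 0.08 (adjusted p of 2.63e-05) with palbociclib there. The abemaciclib call in ZR-75-1 was lost under 6 of 13 alternatives, among them DESeq2 and leaving out DMSO replicate 1 or abemaciclib replicate 1 or 3 (adjusted p up to 0.208).

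Near-identical copies within the replication-dependent families may share reads, and how reads with several alignments were counted was not stated. Sums over a family are less exposed to that, and they are given as CPM of the raw library total with no test. The H4 sum was 776 ± 121 in CAMA-1 with DMSO, 89.8 ± 9.81 under abemaciclib and 131 ± 13.8 under palbociclib (SD, n = 3, as for the sums that follow). In ZR-75-1 it was 1028 ± 122, 113 ± 6.75 and 272 ± 35.4. H4 counts were thus lower with each drug by far more than the SD. The H1 sum was 441 ± 36.5, 209.9 ± 2.86 and 214 ± 12.3 in CAMA-1, in the order of DMSO, abemaciclib and palbociclib, and 721 ± 23.1, 130.5 ± 8.57 and 275 ± 5.37 in ZR-75-1. The sum of the 6 variants was 2107 ± 94.2, 916 ± 25.5 and 1026 ± 41.6 in CAMA-1, against 2308 ± 127, 1095 ± 23.9 and 1547 ± 64.1 in ZR-75-1. Both sums were lower with either drug in either line, with no overlap between libraries.

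In CAMA-1 the H2A sum was 75.7 ± 2.94 with DMSO, 111 ± 10.1 under abemaciclib and 95.4 ± 9.04 under palbociclib, whereas in ZR-75-1 it was 70.5 ± 2.17, 41.3 ± 5.49 and 50.5 ± 4.07. The H2B sum was 77.2 ± 4.93, 135 ± 8.81 and 115 ± 16.1 in CAMA-1, against 51.3 ± 3.65, 48.9 ± 3.75 and 47.2 ± 8.03 in ZR-75-1. Every CAMA-1 drug library was above the DMSO libraries for both families, and in ZR-75-1 the H2A sums were all lower while the H2B sums overlapped. The H3 sum was small, at 11.9 ± 4.84 with DMSO, 23.2 ± 2.08 under abemaciclib and 13.8 ± 1.66 under palbociclib in CAMA-1, against 8.06 ± 0.720, 14.9 ± 1.75 and 11.8 ± 1.15 in ZR-75-1. The 77 genes together made 3489 ± 65.8 with DMSO, 1485 ± 38.7 under abemaciclib and 1595 ± 57.0 under palbociclib in CAMA-1, against 4187 ± 81.9, 1443 ± 24.9 and 2203 ± 36.5 in ZR-75-1.

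**Figure D3:**
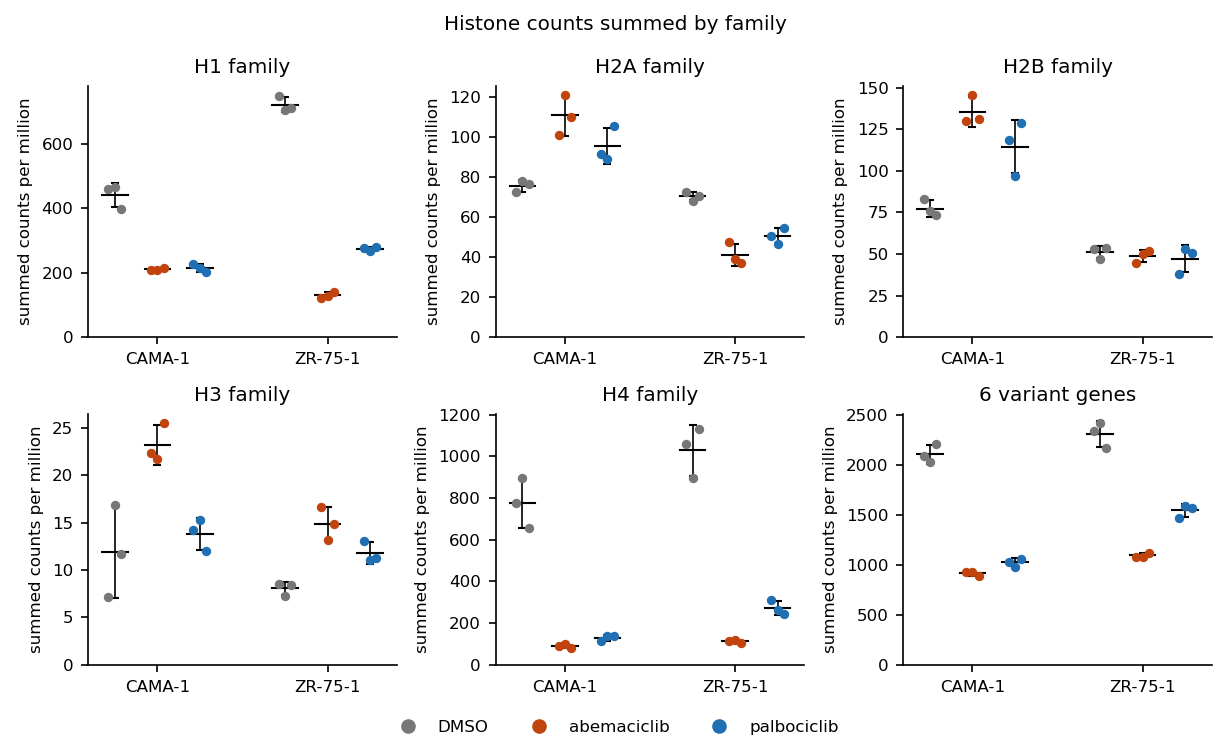
Counts of the histone genes summed by family (y axis, CPM of the raw library total, linear from 0) in each library of CAMA-1 and ZR-75-1, with points for libraries and black lines for the mean and SD of 3 libraries. The H1, H4 and variant sums are lower with both drugs in both lines, and the H2B sums are higher with both drugs in CAMA-1 and overlap DMSO in ZR-75-1.

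Of the tested genes, 10 had the stem-loop end only, 10 had an annotated long end past the stem-loop and 8 had no match to the stem-loop pattern. In CAMA-1 with abemaciclib, 5 of 7 genes with the stem-loop end only were lower and 2 higher (median log2 fold change -2.14), and 1 of 9 with a long end was lower and 6 higher (median 0.83). Genes with no match to the pattern gave 6 lower and 1 higher of 8 (median -1.03), the higher one being H3C6. Palbociclib in that line gave 5 lower and 1 higher of 7, 1 lower and 5 higher of 9, and 6 lower and 1 higher of 8, with medians of -1.81, 0.52 and -0.92. In ZR-75-1 with abemaciclib the counts were 6 lower and 1 higher of 10, 2 lower and 3 higher of 9, and 6 lower of 8, with medians of -2.02, 0.48 and -1.11. The first of these medians was -1.91 with H1-5 set at its bound. Palbociclib there gave 6 lower of 10, 1 lower and 1 higher of 9, and 5 lower and 1 higher of 8, with medians of -1.33, 0.42 and -0.62. Genes with a long end that fell were H2AX in each comparison and H2AC25 in ZR-75-1 with abemaciclib. The 3 groups are small and were formed after the values were seen, so that no test was made.

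The drugs were then set against each other at the same dose and time. In CAMA-1, 2 of 24 histone genes were lower with abemaciclib than with palbociclib and 1 was higher, beside 1.53% and 0.796% of all genes. H4C3 was lower, at -0.79 ± 0.12 (adjusted p of 1.11e-05), as was H2AZ1, at -0.30 ± 0.07 (adjusted p of 0.0127), and H3C10 was higher at 0.89 ± 0.25 (adjusted p of 0.0434). H4C3 alone stayed called without abemaciclib replicate 2 or 3 or palbociclib replicate 1 or 3, and the H3C10 call was lost under 9 of 13 alternatives (adjusted p up to 0.207). The difference had a 95% interval of -0.14 to 0.25 for H1-2, -0.11 to 0.16 for H3-3B and 0.10 to 0.51 for H2AC6 (adjusted p = 0.126), on the log2 scale.

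In ZR-75-1, 10 of 27 histone genes were lower with abemaciclib than with palbociclib and 0 were higher, beside 7.94% and 5.23% of all genes. At an unadjusted p under 0.05, 1 gene was higher (H3C10), and DESeq2 gave the same counts of 10 and 0. Among those lower, the log2 difference was -1.44 ± 0.10 (adjusted p of 4.61e-17) for H4C3, -1.42 ± 0.11 (adjusted p of 5.97e-15) for H1-10, -1.08 ± 0.18 (adjusted p of 9.04e-06) for H2AX, -0.98 ± 0.11 (adjusted p of 1.94e-10) for H1-2, -0.81 ± 0.08 (adjusted p of 1.78e-11) for H2AZ2, -0.73 ± 0.20 (adjusted p of 0.00931) for H2AC25, -0.72 ± 0.07 (adjusted p of 2.07e-12) for H2AZ1 and -0.69 ± 0.09 (adjusted p of 7.13e-09) for H2AJ. H1-5, at 0 with abemaciclib, was at least 1.57-fold lower than with palbociclib (adjusted p = 0.00339). The 2 H2A genes with the large falls showed no called difference, with intervals of -1.35 to 0.94 for H2AC14 and -0.98 to 0.92 for H2AC20, which are too wide to show that the drugs acted alike. For H3-3B the interval was -0.22 to 0.06.

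Whether the lines differed in their response was tested by subtracting the CAMA-1 log2 fold change from the ZR-75-1 one. For abemaciclib 7 of 28 histone genes responded more negatively in ZR-75-1 and 0 less so, beside 10% and 8.19% of all genes. At an unadjusted p under 0.05, 1 gene had a higher response there (H2AJ, at 0.45 ± 0.18), and DESeq2 also gave 7 and 0. Among these the difference was -1.90 ± 0.14 (adjusted p of 8.53e-17) for H1-2, -0.73 ± 0.17 (adjusted p of 0.00102) for H1-10 and -0.58 ± 0.09 (adjusted p of 3.18e-06) for H3-3B, all of which fell in both lines. It was -2.30 ± 0.56 (adjusted p of 0.00188) for H2BC4, -1.57 ± 0.48 (adjusted p of 0.0142) for H2BC8 and -2.13 ± 0.75 (adjusted p of 0.0358) for H3C6, which had been called higher in CAMA-1. H2BC4 had 6, 15 and 11 counts with DMSO and 2, 6 and 6 with abemaciclib in ZR-75-1, and the H3C6 call was lost under 8 of 18 alternatives, among them leaving out DMSO replicate 1 or 3 or abemaciclib replicate 3 of CAMA-1 (adjusted p up to 0.118). The H2BC8 call was lost without CAMA-1 abemaciclib replicate 3. For H4C3 the difference was 0.08 ± 0.16, with a 95% interval of -0.24 to 0.40.

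For palbociclib 4 histone genes responded more negatively in ZR-75-1 and 5 less so, beside 10.3% and 10% of all genes. Among the more negative were H1-2 at -0.87 ± 0.14 (adjusted p of 9.33e-07), H3-3B at -0.47 ± 0.09 (adjusted p of 0.000107) and H2BC4 at -1.77 ± 0.53 (adjusted p of 0.0106), the last lost without ZR-75-1 DMSO replicate 2. Less negative or positive in ZR-75-1 were H2AJ at 1.22 ± 0.18 (adjusted p of 1.5e-07), H4C3 at 0.73 ± 0.14 (adjusted p of 7.54e-05), H1-10 at 0.65 ± 0.15 (adjusted p of 0.00107), H2AZ1 at 0.54 ± 0.10 (adjusted p of 1.76e-05) and H2AZ2 at 0.47 ± 0.11 (adjusted p of 0.000526). H1-10 thus differed between the lines in opposite directions for the 2 drugs, its fall being deeper in ZR-75-1 with abemaciclib and shallower there with palbociclib.

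**Figure D4:**
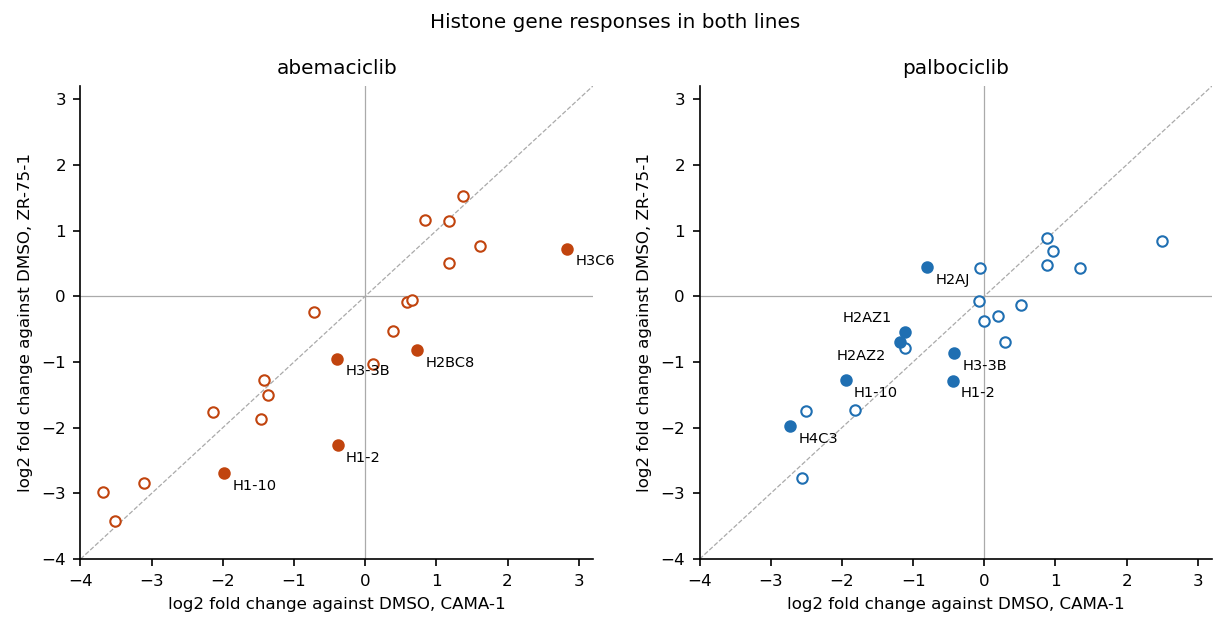
Log2 fold change against DMSO in CAMA-1 (x axis) and ZR-75-1 (y axis) for histone genes tested in both lines, with abemaciclib on the left and palbociclib on the right, the dashed line marking equal responses and filled, named points marking genes whose difference between lines had an adjusted p under 0.05. H1-2 lies far under the line with both drugs, at -0.39 and -2.27 with abemaciclib, and H2AJ lies in the upper left with palbociclib, at -0.80 and 0.45.

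Other genes of the histone pathway were read from lists chosen for their roles. Of 13 tested genes for histone transcription and 3′-end processing, 4 fell in CAMA-1 with either drug, 3 fell and 1 rose in ZR-75-1 with abemaciclib, and 1 fell and 1 rose there with palbociclib. Of all tested genes, 20.1%, 18.7%, 18.3% and 13.4% were lower and 20.3%, 18.4%, 17.9% and 14.5% higher in these 4 comparisons, so that the list's counts lay near or under the background in ZR-75-1 and 4 of 13 stood above it in CAMA-1. The list's medians, in the same order, were -0.37, -0.36, -0.16 and -0.13. SLBP had 39.9, 32.2 and 39.2 CPM in CAMA-1 with DMSO, 19.2, 18.5 and 18.1 under abemaciclib and 20.5, 21.1 and 30.5 under palbociclib, at -0.996 ± 0.17 (adjusted p of 9.2e-06) and -0.65 ± 0.16 (adjusted p of 0.00156). In ZR-75-1 it was -0.75 ± 0.17 (adjusted p of 0.000252) and -0.34 ± 0.16 (adjusted p of 0.0992). NPAT was called in none of the 4 comparisons, at -0.19, 0.11, -0.44 and -0.22 (adjusted p of 0.523, 0.721, 0.0737 and 0.418). POU2F1, the octamer-binding factor, fell in ZR-75-1, at -0.81 ± 0.13 (adjusted p of 7.94e-07) and -0.50 ± 0.12 (adjusted p of 0.0012), and LSM10, a subunit of the U7 particle that cuts histone transcripts, rose there, at 0.69 ± 0.19 (adjusted p of 0.0022) and 0.71 ± 0.18 (adjusted p of 0.00185).

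Of 17 chaperones that act on new histones at replication forks, 11 fell in CAMA-1 with either drug, 9 fell and 1 rose in ZR-75-1 with abemaciclib, and 3 fell and 1 rose there with palbociclib, with median log2 fold changes of -0.74, -0.75, -0.32 and -0.16 for abemaciclib and palbociclib in CAMA-1 and then in ZR-75-1. Beside the 20.1%, 18.7%, 18.3% and 13.4% of all genes that were lower, the list's share was higher in the first 3 comparisons and 3 of 17 lay near the background in the last. ASF1B, a chaperone for H3 and H4, had 124, 121 and 113 CPM in CAMA-1 with DMSO, 29.4, 26.0 and 25.1 under abemaciclib and 46.7, 37.3 and 39.2 under palbociclib, at -2.14 ± 0.12 (adjusted p of 1.81e-18) and -1.53 ± 0.11 (adjusted p of 7.64e-15). In ZR-75-1 it was -1.68 ± 0.15 (adjusted p of 1.87e-14) and -0.67 ± 0.13 (adjusted p of 4.12e-05). No drug library of either line reached the DMSO range. CHAF1B, a subunit of the CAF-1 assembly factor, fell in ZR-75-1 with abemaciclib, at -1.76 ± 0.41 (adjusted p of 0.000386), and SSRP1, a subunit of the FACT complex, fell there with palbociclib, at -0.83 ± 0.08 (adjusted p of 5.58e-12).

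Chaperones and exchangers of variant histones gave 6 lower and 3 higher of 13 in CAMA-1 with either drug, 5 lower and 2 higher of 14 in ZR-75-1 with abemaciclib, and 4 lower and 1 higher there with palbociclib, with medians of -0.17, -0.22, -0.09 and -0.12. The shares lower were above the 20.1%, 18.7%, 18.3% and 13.4% of all genes, and the shares higher were near or under the 20.3%, 18.4%, 17.9% and 14.5% of all genes. ANP32E, which removes H2A.Z, fell in all 4 comparisons, at -2.62 ± 0.21 (adjusted p of 4.6e-14) and -1.97 ± 0.19 (adjusted p of 1.17e-11) in CAMA-1 against -2.04 ± 0.17 (adjusted p of 2.16e-15) and -1.33 ± 0.15 (adjusted p of 2.37e-10) in ZR-75-1. HJURP, which places CENP-A at centromeres, fell in ZR-75-1 with abemaciclib, at -3.14 ± 0.27 (adjusted p of 8.97e-15), and ATRX, a partner of DAXX in placing H3.3, rose in CAMA-1, at 0.69 ± 0.08 (adjusted p of 4.65e-09) and 0.63 ± 0.08 (adjusted p of 3.24e-08). Of the 10 variants outside the rule, 1 of 2 tested fell in CAMA-1 with abemaciclib and both with palbociclib, and 2 of 3 fell in ZR-75-1 with either drug. CENPA, the centromeric H3, had 41, 32 and 46 counts in CAMA-1 with DMSO, 6, 7 and 4 under abemaciclib and 15, 12 and 10 under palbociclib, at -2.64 ± 0.40 (adjusted p of 5.87e-07) and -1.73 ± 0.35 (adjusted p of 7.83e-05). In ZR-75-1 CENPA had 35, 30 and 43 with DMSO, 1, 1 and 3 under abemaciclib and 23, 14 and 20 under palbociclib, and its palbociclib value was -1.04 ± 0.34 (adjusted p of 0.017). For abemaciclib there, whose 3 libraries were at 3 counts or fewer, the adjusted p was 1.61e-09. MACROH2A1 was lower in CAMA-1 with palbociclib, at -0.27 ± 0.08 (adjusted p of 0.00538), and its other 3 values lay between -0.16 and 0.05.

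The S-phase reference genes, which are transcribed in the same part of the cycle as the replication-dependent histones, gave 14 lower of 14 in CAMA-1 with either drug, 13 lower in ZR-75-1 with abemaciclib and 9 lower there with palbociclib. Of all tested genes, 20.1%, 18.7%, 18.3% and 13.4% were lower, for abemaciclib and palbociclib in CAMA-1 and then in ZR-75-1. The median log2 fold change of the S-phase genes was -2.36 and -1.49 in CAMA-1 against -1.79 and -0.44 in ZR-75-1. The falls of H4C3, one of the histone genes that fell most, were larger than these medians in each comparison. The medians of all tested histone genes, -0.14, -0.25, -0.95 and -0.38 in the same order, were smaller falls than these medians. These are values side by side and without a test. RRM2, the small subunit of ribonucleotide reductase, fell in CAMA-1 with abemaciclib, at -4.24 ± 0.13 (adjusted p of 2.09e-27), and in ZR-75-1 with palbociclib, at -0.98 ± 0.13 (adjusted p of 4.11e-08).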

How the data were processed

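RNA from 18 samples of 2 cell lines was sequenced as 3′-end messenger RNA libraries (QuantSeq, single-end reads). Per the labels and the study's methods, the authors trimmed adapters with BBDuk, aligned to hg38 with STAR 2.7.5b and counted reads per gene with featureCounts 2.0.1 on a GENCODE annotation, and they deposited raw counts. The strand setting, the handling of reads with several alignments and any molecular identifiers were not given in the sources used here, and the labels and the methods name the kit's read direction differently. Library totals were 2308442 to 4146549 counts. Replicates were separate libraries that the study calls biological replicates, and none was identical to another (chi-square per degree of freedom 1.83 to 5.18 over 18 pairs).

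Gene identifiers were matched to symbols for 60445 of 60656 rows. Each line's 9 libraries were fitted with edgeR 4.0.16 in R 4.3.3 (filterByExpr, TMM scaling, quasi-likelihood F test, Benjamini-Hochberg adjustment over 11053 genes for CAMA-1 and over 11017 for ZR-75-1), and differences between lines were fitted over all 18 libraries (11987 genes). A gene was called at an adjusted p under 0.05. A standard error was taken as the log2 fold change over the square root of F, so that intervals are approximate. CPM values are TMM-scaled, and family sums are CPM of the raw library total. Bounds against groups at 0 used a floor of 3 counts per library, and count intervals cover counting error only. The fits were tested on simulated data, with changes planted only in genes above a set mean count and 1 spread for all genes. That check does not cover genes with few counts. Alternatives were DESeq2 1.42.0, RLE and upper-quartile factors, no low-count filter, no mitochondrial genes, a replicate block, 1 fit of all libraries and leaving out each library.

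Genes named were taken from the tested histone genes, with full statistics for the variants, H1-2, H1-10 and genes called in at least 2 comparisons with DMSO, and from each other list the largest called changes plus NPAT, SLBP, CENPA, MACROH2A1 and ASF1B. The members and lists were chosen with earlier results of these data known. One gene counted in the totals is not reported here.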

Additional observations from a re-analysis of the deposited data

Results flagged for a closer look

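The responses of several histone genes differed between the lines when the difference itself was tested (edgeR's quasi-likelihood test, Benjamini-Hochberg adjustment over all genes, 3 libraries a group). Each value is the ZR-75-1 log2 fold change less the CAMA-1 one. For abemaciclib the difference was -1.90 for H1-2, -0.73 for H1-10 and -0.58 for H3-3B, and each of these genes fell in both lines. It was -2.30 for H2BC4, -1.57 for H2BC8 and -2.13 for H3C6, and these were called higher in CAMA-1. In ZR-75-1 H2BC8 and H3C6 were not called against DMSO, and H2BC4 had too few counts to be tested. The H3C6 difference was no longer called under 8 of 18 alternatives and the H2BC8 one under 1.

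For palbociclib the difference was -0.87 for H1-2 and -0.47 for H3-3B, which fell in both lines, and -1.77 for H2BC4. It was 0.73 for H4C3, 0.65 for H1-10, 0.54 for H2AZ1 and 0.47 for H2AZ2, which also fell in both lines, and 1.22 for H2AJ, which was lower in CAMA-1 and higher in ZR-75-1. Groups of 3 libraries are too small for a test of single outlying libraries.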

How the results depend on the processing

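Of 72 histone calls against DMSO, 60 were kept under every alternative and 12 were lost under at least 1. Between the drugs 11 of 13 calls were kept, and between the lines 13 of 16. No called gene changed sign under any alternative. In the order of abemaciclib and palbociclib in CAMA-1 and then in ZR-75-1, 21, 19, 18 and 14 genes were called against DMSO, and DESeq2 called 19, 16, 16 and 13. Leaving out 1 library at a time gave 19 to 22, 17 to 20, 15 to 18 and 12 to 13. Between the drugs it gave 1 to 2 in CAMA-1, against 3, and 10 in ZR-75-1, and between the lines 5 to 9 for abemaciclib, against 7, and 8 to 10 for palbociclib, against 9. The count in CAMA-1 was 1 without abemaciclib replicate 2 or 3 or palbociclib replicate 1 or 3. With totals scaled by TMM, the ratio of the family sum to DMSO in CAMA-1 moved by more than the replicate SD, to 0.518 for H1 and 0.474 for the variants with abemaciclib and to 0.523 for the variants with palbociclib. The cause was not tested.

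No pairing by replicate number was seen, since same-numbered samples deviated together with correlations of only -0.08 to 0.01. These values cannot show whether same-numbered cultures were handled together. With the replicate number as a block, 20, 19, 18 and 13 genes were called against DMSO, 2 and 10 between the drugs and 7 and 10 between the lines.

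Of the 77 genes, 49 had too few counts to be tested in either line, none of them a variant. How far depth set this was not tested. The reads see only transcripts with a poly(A) tail, and the sharing of reads between near-identical copies was not tested.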
